A study of Mus musculus with 10 samples.

Results

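The core loop of the circadian clock was described here by 10 genes in mouse liver: the activators Arntl, Clock and Npas2, the nuclear receptors Nr1d1 and Nr1d2, and the repressors Per1, Per2, Per3, Cry1 and Cry2. The members are a list of genes by name, and each was found by matching the accession of an array probe to a RefSeq gene symbol. All 10 of them were on the array, out of 21613 named genes, and each had 1 probe, so no second probe of the same gene could be set beside it. All 10 passed the filter on dim probes, out of 14531 named genes tested, but Npas2, Per3 and Cry1 passed through 1 group, since Npas2 was well above background on 0 of 6 metformin arrays and 4 of 4 CCl4 arrays, Per3 on 6 of 6 metformin arrays and 0 of 4 CCl4 arrays, and Cry1 on 3 of 6 metformin arrays and 4 of 4 CCl4 arrays. The list was selected on the difference in log2 level between the treatment groups, which was already known and was large for Arntl, Npas2, Nr1d1 and Per3, so that difference is given below as a description, with no test.

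The samples were livers of 10 male mice of the TG221 strain, which carries a miR-221 transgene, on a B6D2F2 background, each measured on a 1-colour Agilent array. In 6 mice metformin, a drug for type 2 diabetes, was given by mouth at 300 mg/kg a day together with CCl4 (metformin mice below). The other 4 mice had CCl4 without metformin (CCl4 mice below). CCl4, a liver toxin, was given to all 10 by gavage as a 20% v/v solution 3 times a week for 14 weeks from 4 to 6 weeks of age, metformin began 3 weeks later than CCl4, and livers were frozen at 24 weeks. Both groups carried the transgene and both had CCl4, and no mouse lacking the transgene or CCl4 was analysed here. The labels name no promoter for the transgene, and they give both liver and hepatocellular carcinoma as the sample type. They state a light cycle of 12 hours light and 12 hours dark, and no hour of harvest.

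The clock of a cell is a feedback loop of transcription. The protein of Arntl (also called BMAL1) pairs with that of Clock or of its relative Npas2, and the pair binds the DNA sequence called the E-box and switches on the Per, Cry and Nr1d genes. PER and CRY proteins return to the nucleus and inhibit the pair, while the NR1D receptors (REV-ERBs) repress Arntl, Npas2 and Clock through the RRE sequence, where the ROR receptors activate. In the liver this loop runs in nearly every hepatocyte, is set by feeding as well as by light, and times the enzymes of lipid, bile acid and glucose metabolism. Levels of most of its messages therefore depend on the hour, and Arntl and Npas2 peak at about the opposite time of day from Nr1d1 and the Per genes.

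The known binding sequences of the loop were looked for in promoters, because several members differed together between the groups. RefSeq promoter windows of 250 bases before to 50 after the transcription start (build GRCm38.p6) were held for 9 of the 10 genes, in 13 windows, and Per2 is named only. Both strands were searched for the E-box CACGTG, the related E'-box CACGTT, the RRE (AANT followed directly by AGGTCA) and the D-box TTANGTAA, the sequence bound by Dbp, Tef, Hlf and Nfil3. The motifs did not overlap each other in these windows. Among all 32851 windows, 7.15% held the E-box, 4.68% the E'-box, 0.219% the RRE and 2.32% the D-box. Counted by gene, as the members are below, these shares were 8.09%, 5.44%, 0.259% and 2.72% of 27025 genes. In the members, the E-box was found in 2 genes (Per1 and Cry1), the E'-box in 3 (Nr1d1, Cry1 and Cry2), the RRE in 1 (Arntl) and the D-box in 1 (Per3, at 2 places). A match is a string of letters and not evidence of binding. The stretches around the matches are shown 5′ to 3′ on the strand of the gene, with the motif in capitals, because they hold the letters of the kinds of element through which the loop is known to act; the E'-box reads AACGTG where it lies on the opposite strand.
Arntl, chr7:113207528-113207557, plus strand, 18 to 47 bases after the start, RRE: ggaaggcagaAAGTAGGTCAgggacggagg
Nr1d1, chr11:98775385-98775420, minus strand, from -43 to -8, E'-box: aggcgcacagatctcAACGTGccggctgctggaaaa
Per1, chr11:69098768-69098803, plus strand, from -181 to -146, E-box: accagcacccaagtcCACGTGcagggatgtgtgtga
Per3, chr4:151044801-151044885, minus strand, from -220 to -136, a pair of D-boxes: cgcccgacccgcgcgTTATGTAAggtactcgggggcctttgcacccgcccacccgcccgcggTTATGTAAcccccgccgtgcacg
Cry1, chr10:85185094-85185148, minus strand, from -94 to -40, E'-box and then E-box: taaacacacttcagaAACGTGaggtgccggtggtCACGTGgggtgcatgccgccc
Cry2, chr2:92434215-92434250, minus strand, from -181 to -146, E'-box: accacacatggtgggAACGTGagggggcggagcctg

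Every level below is the log2 of the deposited processed intensity minus the 75th percentile of its array, so 0 is the brightness that 75% of the spots of that array lie below. The percentile ran from 237 to 363 intensity units over the arrays, no spot was saturated, and arrays correlated at 0.983 to 0.992 within the metformin group, 0.984 to 0.991 within the CCl4 group and 0.959 to 0.975 between groups, across probes. The metformin arrays were on 1 slide and the CCl4 arrays on another, so slide and treatment cannot be told apart. The labels number the mice, and 1 array was made per mouse. Of the named genes, 47.4% were called at an adjusted p below 0.05 in limma (27.7% higher with metformin and 19.7% lower), and in 35.9% the groups did not overlap. These are bulk livers, in which fewer cells of a type and less RNA per cell cannot be told apart.

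Across the loop, 3 members were lower in every metformin mouse than in any CCl4 mouse (Arntl, Npas2 and Nr1d1), 1 was higher in every metformin mouse (Per3), and in 6 the groups overlapped (Clock, Nr1d2, Per1, Per2, Cry1 and Cry2). The share of named genes whose groups did not overlap was 14.1% for lower and 21.8% for higher, and because the members were picked with this difference in view nothing is read from the comparison. The differences in mean log2 level, metformin minus CCl4, were negative for 8 members, down to -3.34 for Arntl, and positive for 2. The fitted values of Npas2 (-3.33) and Per3 (3.86) rest on signals below background in 1 group. With that group raised to a floor, described below, they were at -1.90 and 2.13, which are not strict bounds. The median over members was -0.64, where the median of all 22183 features was 0.10. The floor values could not change the median over members, since Npas2 and Per3 stay on the same side of it. The middle 90% of named genes lay between -1.06 and 1.06, and Arntl, Nr1d1, Npas2 and Per3 were outside that range. The last 2 were outside it also at their floor values, but not with the normexp background correction (-0.76 and 0.84).

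**Figure D1:**
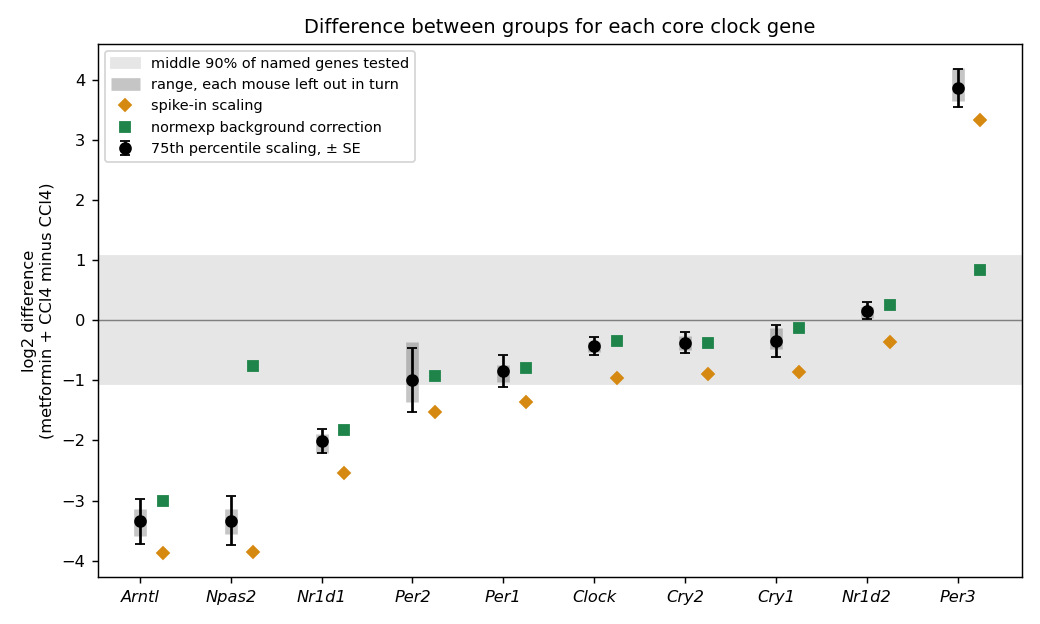
The difference in mean log2 level, metformin plus CCl4 minus CCl4, for each of the 10 core clock genes, with black points and bars for the 75th percentile scaling ± SE and dark bands for the range when each mouse was left out in turn. Diamonds show scaling to spike-in transcripts and squares the normexp background correction, and the light band holds the middle 90% of named genes (-1.06 to 1.06). Arntl, Npas2, Nr1d1 and Per3 lie outside it with the first scaling. Npas2 and Per3 are below background in 1 group, and are at -1.90 and 2.13 against a floor, which is not a strict bound. With normexp these 2 are at -0.76 and 0.84. The light band was taken with the 75th percentile scaling alone, so diamonds and squares cannot be placed against it.

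Arntl, the activator without which the loop does not run, was much lower in the metformin mice. It was at -1.87 at the lowest, -0.98 at the median and 0.39 at the highest in the 6 metformin mice, against 2.46, 2.52, 2.75 and 2.06 in CCl4 mice 1 to 4. The means were -0.90 ± 0.79 in metformin mice and 2.45 ± 0.29 in CCl4 mice (SD, n = 6 and 4), a difference of -3.34 ± 0.38 (SE), or 10.1-fold lower. The highest metformin mouse was below the lowest CCl4 mouse, and the metformin mice were spread more widely than the CCl4 mice. In intensity units Arntl read 96.2 to 310.2 in metformin mice and 1365 to 1938 in CCl4 mice. Leaving out each mouse in turn gave -3.60 to -3.15. In the authors' deposited table, quantile-normalised on the log2 scale, Arntl differed by -3.37.

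Npas2, which can take the place of Clock beside Arntl, was not well above background on any metformin array. It was at -7.12, -6.29 and -5.01 (lowest, median and highest) in the metformin mice, against -2.88, -2.80, -3.18 and -2.38 in CCl4 mice 1 to 4. Its measured means were -6.14 ± 0.85 in metformin mice and -2.81 ± 0.33 in CCl4 mice (SD, n = 6 and 4). Because the metformin values are below background, a floor was used in their place. It was the higher of the probe's own signal and the dimmest signal well above background on each metformin array. Against this floor Npas2 was 3.74-fold lower in the metformin mice. That is not a strict bound, since metformin mouse 4, at -5.01, was above that array's dimmest such signal, -5.17, yet not well above background. With normexp the difference was -0.76. Even in the CCl4 mice its intensity was only 31.8 to 64.8 units. In the authors' deposited table Npas2 differed by -3.28, and that value carries the same limit.

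Clock, the usual partner of Arntl, differed much less. It was at 0.46, 0.76 and 1.10 in the metformin mice, against 0.90, 1.13, 1.40 and 1.29 in CCl4 mice 1 to 4. The means were 0.75 ± 0.24 in metformin mice and 1.18 ± 0.22 in CCl4 mice (SD, n = 6 and 4), a difference of -0.43 ± 0.15 (SE). The groups overlapped, since metformin mouse 6, at 1.10, was above CCl4 mouse 1, at 0.90. The 3 activators therefore did not differ to the same degree between the groups, although all 3 had a negative difference.

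Nr1d1, which encodes REV-ERB alpha, the receptor that represses Arntl, was also lower in the metformin mice. It was at 1.29, 1.79 and 2.03 in the metformin mice, against 3.84, 4.11, 3.91 and 3.16 in CCl4 mice 1 to 4. The means were 1.74 ± 0.28 in metformin mice and 3.75 ± 0.41 in CCl4 mice (SD, n = 6 and 4), a difference of -2.02 ± 0.20 (SE), or 4.04-fold lower. All 6 metformin mice lay below the lowest CCl4 mouse, and the difference was -2.21 to -1.90 when each mouse was left out in turn. Nr1d1 differed by -2.10 in the authors' deposited table.

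Nr1d2, which encodes REV-ERB beta and overlaps Nr1d1 in function, did not share that difference. It was at 1.96, 2.32 and 2.56 in the metformin mice, against 2.30, 2.33, 2.18 and 1.79 in CCl4 mice 1 to 4. The means were 2.31 ± 0.21 in metformin mice and 2.15 ± 0.25 in CCl4 mice (SD, n = 6 and 4). The groups overlapped over most of their range, and the difference of 0.16 ± 0.14 (SE) became 0.037 without CCl4 mouse 4 and -0.37 after scaling to spike-in transcripts. The paired receptors of the loop thus stood apart in these livers in the size of their difference, as a description of the list and not a test.

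**Figure D2:**
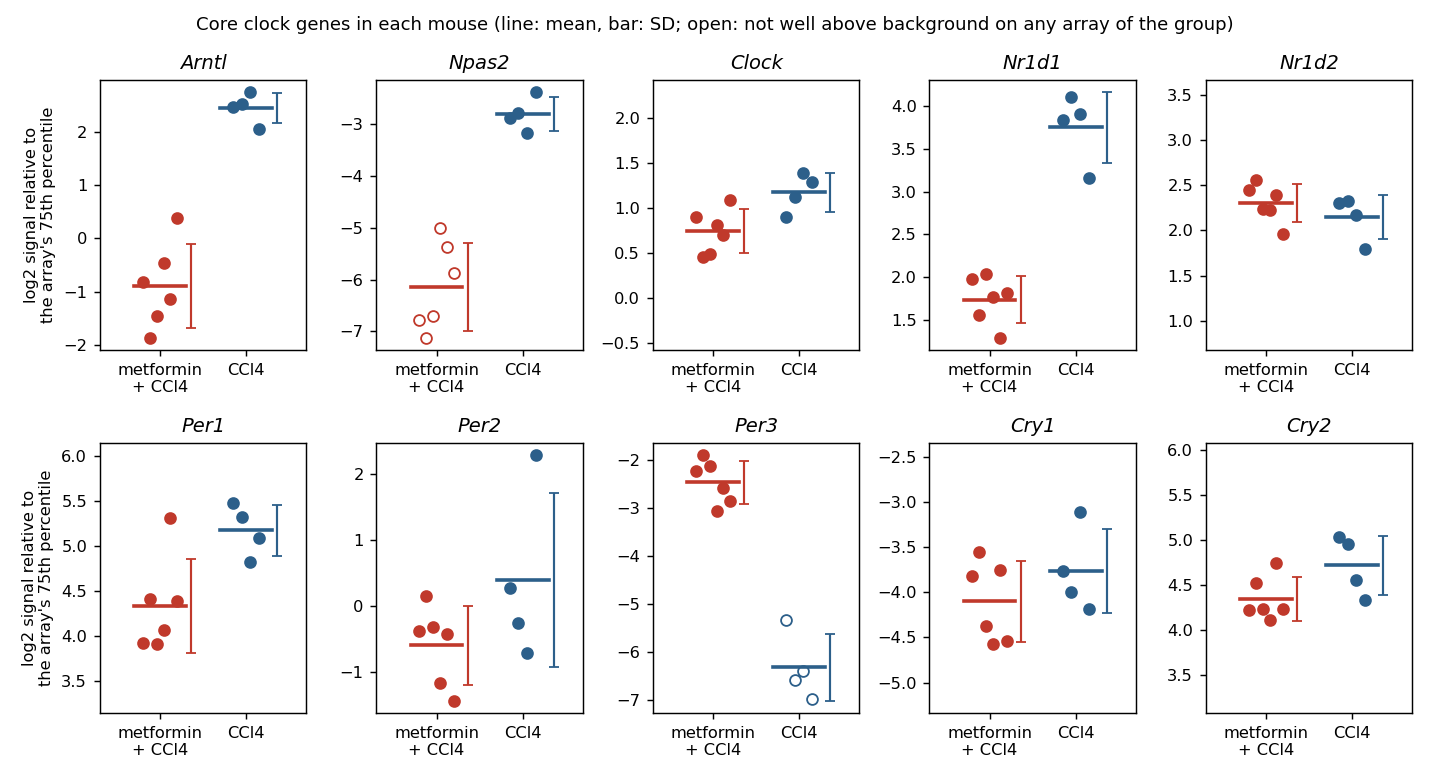
The log2 level of each core clock gene in each mouse, relative to the 75th percentile of its array, in metformin plus CCl4 mice (red, n = 6) and CCl4 mice (blue, n = 4), with a line for the mean and a bar for the SD; open points mark a gene that no array of that group showed well above background. The groups are apart for Arntl, Npas2, Nr1d1 and Per3 and overlap for the other 6 genes.

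The 3 Per genes, whose proteins carry the negative arm of the loop, differed in different directions. Per3, which helps set the timing of the loop and is dispensable for it in mice, was the member that was higher in the metformin mice without overlap. It was at -3.06, -2.40 and -1.90 in the metformin mice, against -5.33, -6.59, -6.39 and -6.97 in CCl4 mice 1 to 4, and no CCl4 array showed it well above background. The measured means were -2.46 ± 0.45 in metformin mice and -6.32 ± 0.70 in CCl4 mice (SD, n = 6 and 4). Against a floor taken in the same way on the CCl4 arrays, Per3 was 4.37-fold higher in the metformin mice. That again is not a strict bound, and with normexp the difference was 0.84. Its intensity was 31.3 to 94.0 units in metformin mice and 2.47 to 7.72 units in CCl4 mice. In the authors' deposited table Per3 differed by 3.72, again without a measured level on the CCl4 side.

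Per1, which is quickly induced by hormones and fasting as well as by the clock, was at 3.91, 4.23 and 5.30 in the metformin mice, against 5.47, 5.32, 4.82 and 5.08 in CCl4 mice 1 to 4. The means were 4.33 ± 0.52 in metformin mice and 5.17 ± 0.28 in CCl4 mice (SD, n = 6 and 4), a difference of -0.84 ± 0.26 (SE). Only metformin mouse 5, the highest, reached the range of the CCl4 mice, and without it the difference was -1.04. Per2, a repressor whose loss disrupts the daily rhythm of mice, was at -1.44, -0.40 and 0.16 in the metformin mice, against 0.27, -0.25, -0.70 and 2.28 in CCl4 mice 1 to 4. CCl4 mouse 4 stood far above the other mice, and the groups otherwise overlapped. The difference of -0.99 ± 0.53 (SE) became -0.37 without CCl4 mouse 4, so 1 mouse set most of it.

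The cryptochromes, the strongest repressors of the Arntl and Clock pair, overlapped between the groups. Cry1, the one with the later peak, was at -4.58, -4.09 and -3.55 in the metformin mice, against -3.76, -3.99, -3.11 and -4.18 in CCl4 mice 1 to 4, with a difference of -0.34 ± 0.27 (SE) that became -0.12 without CCl4 mouse 3. It was well above background on only 3 of the 6 metformin arrays. Cry2 was at 4.11, 4.23 and 4.75 in the metformin mice, against 5.03, 4.96, 4.55 and 4.33 in CCl4 mice 1 to 4. Its means were 4.34 ± 0.24 in metformin mice and 4.72 ± 0.33 in CCl4 mice (SD, n = 6 and 4), a difference of -0.37 ± 0.17 (SE). Neither cryptochrome gave groups that were apart.

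The size of these differences depended on the scaling and on the background correction. Scaling to 7 spike-in probes moved the median of all features to -0.42, in place of 0.10, and moved every gene down with it, so that Arntl was at -3.87, Npas2 at -3.86, Nr1d1 at -2.54, Per3 at 3.33, Clock at -0.96, Per1 at -1.37, Per2 at -1.52, Cry1 at -0.87 and Cry2 at -0.90. Relative to the median of all features, Arntl was at -3.44, Nr1d1 at -2.12, Nr1d2 at 0.055 and Per3, below background in the CCl4 mice, at 3.76. These values are the same with both scalings by arithmetic, since each subtracts 1 value per array. The normexp background correction left Arntl at -3.00 and Nr1d1 at -1.83 and shrank the dim genes Npas2 and Per3 to -0.76 and 0.84. With the 4 CCl4 and the 2 metformin arrays of slide row 1 alone, Arntl was at -3.79, Npas2 at -4.14, Nr1d2 at 0.35, Per2 at -0.51, Per3 at 4.25 and Cry1 at 0.08.

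Most members also varied widely between mice of 1 group. The residual SD of the fit was above the median of all features for 8 of the 10. It lay at the 98.5 percentile for Per2, 95.5 for Npas2, 94.3 for Arntl and 90.4 for Per3, and at the 47.3 and 44.9 percentiles for Clock and Nr1d2. For Npas2 and Per3 part of that is the spread of values below background. Variation between mice of the same group played no part in how the list was made, so the relations among members were tested within the 6 metformin mice, over the 8 members well above background on all 6 arrays.

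None of the 28 pairs passed the Benjamini-Hochberg adjustment over the pairs: the lowest adjusted p was 0.0648 for r and 0.117 for rho in the exact permutation tests. With 6 mice the smallest p these permutation tests can give, before adjustment, is 0.00139 for r and 0.00278 for rho. A lone pair therefore could not pass by rho, and could pass by r only at that smallest p. That no pair passed thus says little about the relations. The pairs with the lowest unadjusted p are described here with that limit. Arntl and Per2 had r = -0.95 (rho = -0.94, exact permutation p = 0.00278 and 0.0167, two-sided, n = 6). Arntl and Clock had r = 0.95 (rho = 0.94, exact permutation p = 0.00556 and 0.0167, n = 6). The highest Arntl and the lowest Per2 were both in metformin mouse 6, and the lowest Arntl and the highest Per2 both in metformin mouse 2. Without these 2 mice, which are farthest from the median of Arntl, r was -0.82 for Arntl and Per2 and 0.85 for Arntl and Clock.

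For Nr1d1 and Per1 r was -0.93 (rho = -0.94, exact permutation p = 0.00694 and 0.0167, n = 6), or -0.75 without metformin mice 3 and 5. For Per2 and Per3 r was 0.92 (rho = 0.94, exact permutation p = 0.00972 and 0.0167, n = 6), or 0.83 without metformin mice 4 and 6. At an unadjusted p below 0.05 there were 10 pairs by r, 6 negative and 4 positive, and 5 pairs by rho. The other 6 by r were Nr1d2 with Per2 at 0.89, Per1 with Cry2 at 0.89, Nr1d1 with Cry2 at -0.87, Arntl with Nr1d2 at -0.83, Clock with Per2 at -0.82 and Arntl with Per3 at -0.82. Without the 2 mice farthest from the median of the first gene of each pair, these 6 were 0.53, 0.63, -0.71, 0.0099, -0.39 and -0.76, in that order. The relation of Arntl with Nr1d2 thus rested on metformin mice 2 and 6, and that of Clock with Per2 weakened without the same mice.

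**Figure D3:**
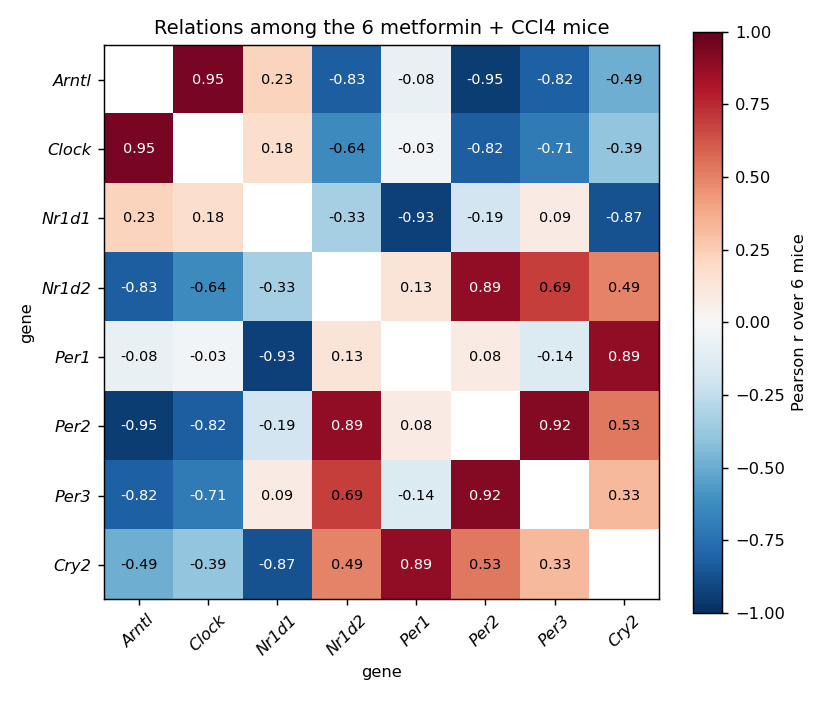
Pearson's r between the log2 levels of the 8 core clock genes measured on all 6 metformin plus CCl4 arrays, over those 6 mice, from -1 (blue) to 1 (red). The value is 0.95 for Arntl and Clock, -0.95 and -0.82 for Per2 with Arntl and with Clock, and -0.93 and -0.87 for Nr1d1 with Per1 and with Cry2; none of the 28 pairs passed adjustment.

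The 4 CCl4 mice were too few for a correlation, but they could be added by taking each mouse's deviation from its group mean, which over all 10 mice gave r = 0.77 for Arntl and Clock, -0.69 for Arntl and Per2 and -0.50 for Nr1d1 and Per1, as a description. Over the same 10 mice the relation of Per2 and Per3 was 0.03, where Per3 in the CCl4 mice is below background. With median or spike-in scaling, r within the metformin mice was 0.81 and 0.77 for Arntl and Clock, -0.91 and -0.78 for Arntl and Per2, and -0.90 and -0.77 for Nr1d1 and Per1. It was 0.94 and 0.94 for Per2 and Per3, 0.93 and 0.91 for Nr1d2 and Per2, and 0.76 and 0.71 for Per1 and Cry2. For Arntl it was -0.78 and -0.59 with Per3 and -0.80 and -0.52 with Nr1d2. Clock and Per2 weakened to -0.52 and -0.20, and Nr1d1 and Cry2 to -0.43 and -0.16. The metformin arrays were in 2 rows of their slide, with 2 mice in row 1 and 4 in row 2, too few in each for a value within the row.

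**Figure D4:**
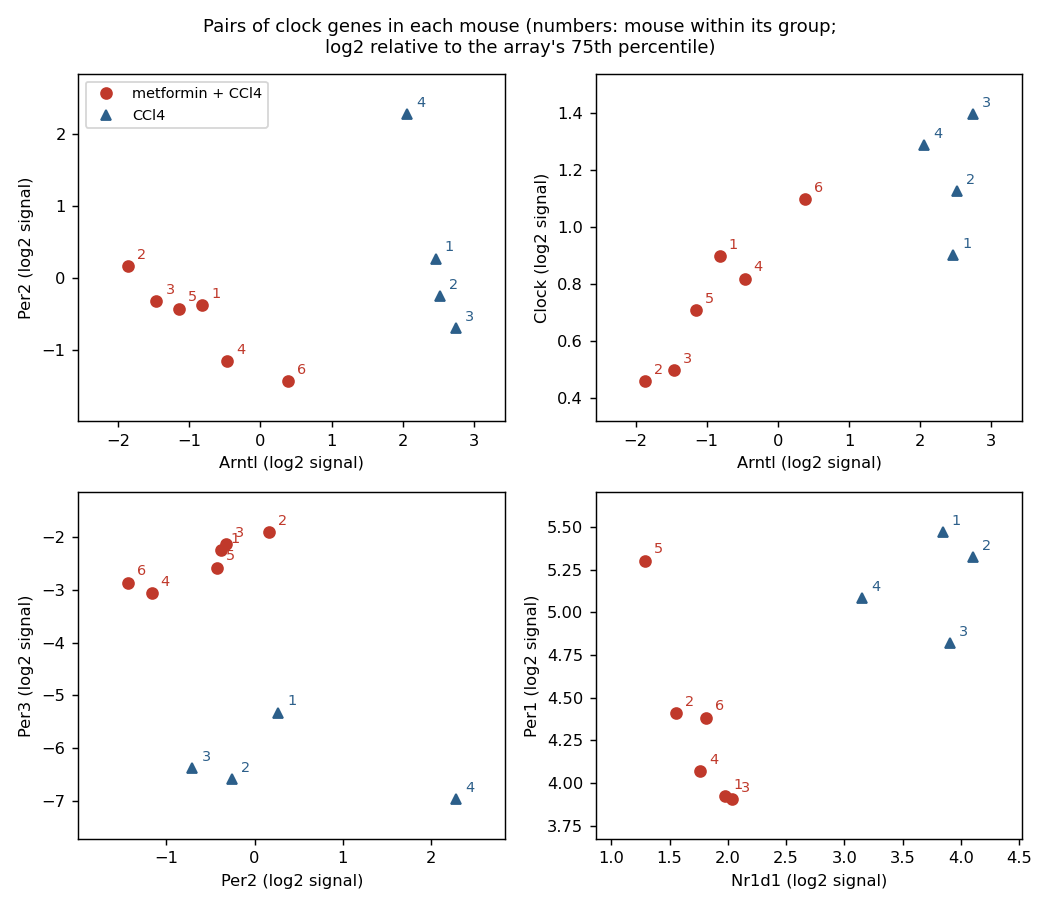
Pairs of core clock genes in each mouse, as log2 levels relative to the 75th percentile of the array, with circles for metformin plus CCl4 mice, triangles for CCl4 mice and the number of the mouse beside each point. Within the metformin mice Per2 is lower and Clock higher where Arntl is higher, Per3 is higher where Per2 is higher and Per1 is lower where Nr1d1 is higher, none of them past the adjustment; the CCl4 mice lie apart from them in every panel.

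To find which genes were most like Arntl from mouse to mouse, 14523 named genes were compared with it over all 10 mice after the group means were removed. The highest r was that of Lrfn3, a neuronal adhesion protein, at 0.97, followed by Speg, a muscle kinase, at 0.95, Tmem262 at 0.95, the nucleotidase Entpd4 at 0.94 and Clpx, a mitochondrial protein unfoldase, at 0.94. The lowest were Slc2a2, the glucose transporter of hepatocytes, at -0.96, the deubiquitinase Usp46 at -0.92, Zfp277 at -0.92, Hmgb1-rs17 at -0.92 and the chromatin remodeller Atrx at -0.91. In all, 246 genes were beyond 0.8 in either direction. None of the other 9 core clock genes was among these extremes: Clock at 0.77 lay at the 98.5 percentile of named genes and Per2 at -0.69 at the 3.19 percentile, while Npas2 was at 0.43, Nr1d1 at 0.32, Per1 at -0.09, Cry2 at -0.24, Cry1 at -0.37, Per3 at -0.42 and Nr1d2 at -0.45. Arntl was spread more widely in the metformin mice (SD 0.79) than in the CCl4 mice (SD 0.29), so these r values rest mostly on the metformin mice. In the 4 CCl4 mice alone, too few for a firm value, the 5 highest had r of 0.92, 0.94, 0.73, 0.93 and 0.95. The 5 lowest had -0.995, -0.21, -0.68, -0.97 and -0.30 there, in the order named above. All these r values are descriptions of mice that share 2 slides. Those of Npas2, Per3 and Cry1 also rest on dim signals. Npas2 was below background in the metformin mice and Per3 in the CCl4 mice, and Cry1 was well above background on only 3 of the 6 metformin arrays.

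Outside the core loop, a list of 26 other clock regulators was measured in full: receptors, kinases, ubiquitin ligases and cofactors that act on the loop's proteins. In limma 10 were higher with metformin, 4 were lower and 12 were not called, which is 38.5% higher and 15.4% lower, where 27.7% and 19.7% of all named genes were. Their median difference was 0.22, where that of all features was 0.10. After scaling to spike-in transcripts 1 was higher (Cipc) and 8 were lower, where 589 and 6297 of all 14531 named genes were. The list was chosen with earlier results of these data known, so nothing is read from these shares. The p-values of its genes below are given as a description.

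Rora, a receptor that activates Arntl from the same element that NR1D1 occupies, was lower in every metformin mouse. It was at 2.01, 2.16 and 2.35 in the metformin mice, against 3.63, 3.33, 3.31 and 3.29 in CCl4 mice 1 to 4, a difference of -1.22 ± 0.10 (SE, adjusted p = 2.5e-05 in limma), and a second, dimmer probe gave -0.54.

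Bhlhe40, a repressor that competes for E-boxes, fell by 1.43 ± 0.31 (adjusted p = 0.00377 in limma), with 3.13, 3.73 and 4.44 in the metformin mice and 4.82, 5.52, 4.79 and 5.84 in CCl4 mice 1 to 4. Its relative Bhlhe41 was not called (-0.38 ± 0.28, adjusted p = 0.289). Ciart, a repressor with a strong daily rhythm, was not called either (-0.72 ± 0.78, adjusted p = 0.483) and was the most uneven of those named among the CCl4 mice, at 2.79, 0.52, -0.19 and -1.58. Without CCl4 mouse 1 its difference was 0.085.

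Cipc, an inhibitor of the CLOCK protein, rose 3.02-fold: it was at 2.98, 3.25 and 3.53 in the metformin mice, against 1.90, 1.34, 1.59 and 1.76 in CCl4 mice 1 to 4 (difference 1.60 ± 0.14, adjusted p = 3.24e-05 in limma), and its second probe gave 0.53. The casein kinases that mark PER proteins for destruction went apart in their brightest probes. Csnk1e fell by 0.76 ± 0.13 (adjusted p = 8.14e-04), with its other probes at -0.98 and -0.60. Csnk1d was at 0.43 ± 0.08 (adjusted p = 0.0013), but its second probe was at -1.44 and the mean of both gave -0.51, so its direction depends on the probe. Spike-in scaling, which moves every gene down by the same amount, put it at -0.098.

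Of the remaining called regulators, Timeless rose by 0.87 ± 0.11, Sirt1, a deacetylase of clock proteins, by 0.79 ± 0.11 and Nono, a cofactor of PER proteins, by 0.55 ± 0.07 (adjusted p = 1.8e-04, 3.17e-04 and 2.87e-04 in limma). These 3 were at 0.35, 0.26 and 0.02 after scaling to spike-in transcripts and were then no longer called. Ncor1, the corepressor through which NR1D receptors act, was at -0.40 ± 0.08 (adjusted p = 0.00201) by its brightest probe and at 0.23 and -0.037 by its other probes, and the mean of its probes, -0.07, was not called (adjusted p = 0.508). The other 5 that were higher were Prkaa1, Hdac3, Wdr5, Ddb1 and Gsk3b, at 0.60, 0.50, 0.38, 0.36 and 0.29, which scaling to spike-in transcripts put at 0.07, -0.03, -0.15, -0.16 and -0.24.

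The list of 16 clock output genes, whose rhythm the loop drives in liver, had 6 higher, 2 lower and 8 not called, or 37.5% higher and 12.5% lower, where 27.7% and 19.7% of all named genes were. Their median difference was 0.57, where that of all features was 0.10. This list too was chosen with earlier results of these data known, so nothing is read from the shares or the median. The p-values of its genes are likewise a description. The D-box factors Dbp, Tef and Hlf rose by 1.67 ± 0.46, 1.71 ± 0.23 and 0.93 ± 0.19 (adjusted p = 0.0134, 2.59e-04 and 0.00251 in limma), and Nfil3, which represses from the same sequence, fell by 1.52 ± 0.34 (adjusted p = 0.00424). With slide row as a covariate Dbp was at 1.83 and no longer called (adjusted p = 0.0574). Dbp was at 6.25, 6.58 and 7.06 in the metformin mice, against 6.03, 5.42, 5.15 and 3.14 in CCl4 mice 1 to 4, and its difference was 1.07 without CCl4 mouse 4. Cyp7a1, which makes bile acids from cholesterol, and Gys2, the liver glycogen synthase, rose by 2.79 ± 0.26 and 0.87 ± 0.20 (adjusted p = 5e-05 and 0.00468), while Lpin1, an enzyme of triglyceride synthesis and a coactivator, fell by 2.37 ± 0.59 (adjusted p = 0.00823). After scaling to spike-in transcripts 3 output genes were higher (Dbp, Tef and Cyp7a1) and 4 lower, with Gys2, Hlf and Tspan4 no longer called. Of all 14531 named genes, 589 were higher and 6297 lower with that scaling. Tspan4, named after its values were seen, was at 0.60, and at 0.076 after that scaling.

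**Figure D5:**
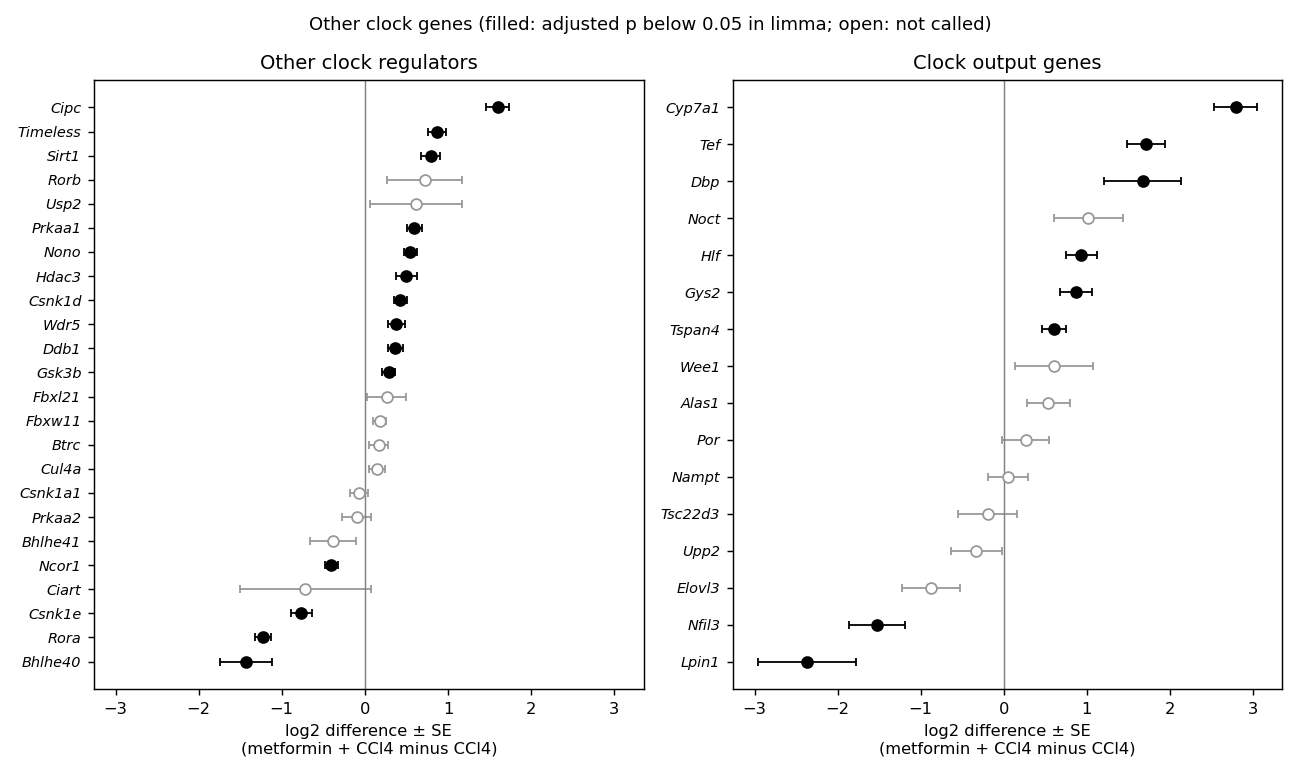
The difference in mean log2 level, metformin plus CCl4 minus CCl4, ± SE for 24 of the 26 other clock regulators and 16 clock output genes, with filled points for an adjusted p below 0.05 in limma and open points for genes not called. Among regulators 10 are higher and 4 lower, from Cipc at 1.60 to Bhlhe40 at -1.43, and among output genes 6 are higher and 2 lower, from Cyp7a1 at 2.79 to Lpin1 at -2.37.

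The tissue label was checked against marker genes of hepatocytes and of other liver cells, of which the stellate cell markers had summed levels that did not overlap between the groups, while the sums of the other lists overlapped. Of all named genes, 27.7% were higher and 19.7% lower. The hepatocyte genes Alb, Apoa1 and Ttr lay at or above the 99.4 percentile of mean signal, and of 12 hepatocyte markers 1 was higher and 3 were lower in limma, with a summed linear level, relative to each array's 75th percentile, of 8024 to 10485 in metformin mice and 9298 to 11749 in CCl4 mice. Of 12 stellate cell and myofibroblast markers 0 were higher and 8 lower, with sums of 12.5 to 21.0 in metformin mice and 21.7 to 31.7 in CCl4 mice. Of 11 macrophage markers 0 were higher and 5 lower, with sums of 70.1 to 129 in metformin mice and 102 to 129 in CCl4 mice. Of 9 bile duct markers 1 was higher and 5 lower, with sums of 2.65 to 11.2 in metformin mice and 7.47 to 14.1 in CCl4 mice. Of 10 endothelial markers 1 was higher and 3 lower, with sums of 51.4 to 86.2 in metformin mice and 73.4 to 88.7 in CCl4 mice. Of 9 T cell, B cell and neutrophil markers 0 were higher and 3 lower, with sums of 34.2 to 85.8 in metformin mice and 66.2 to 99.8 in CCl4 mice. The markers that did not pass the filter on dim probes were Cd163 for macrophages, Cldn4 for bile duct and Cd8a, Trbc2 and Cd79a for lymphocytes. The part of these cells in the levels of the clock genes was not tested.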

How the data were processed

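The authors deposited scanner files of spot intensities on a linear scale from Agilent Feature Extraction 10.7.3.1, background-subtracted and detrended by that software and not normalised between arrays, per the file headers. The authors deposited as well a table with per-mouse log2 values for 4595 probes, quantile-normalised and kept where the FDR was under 0.01 and the fold over 1.5, per its first line. Its columns followed the log2 scanner values of their own arrays at r of 0.9997 to 1.00, which sets scale and direction. Its column medians were 7.76 to 7.88, any further centring is unknown, and it held 4 of the 10 members.

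Each array had 59305 non-control spots for 55681 probes, of which 51.2% to 54.9% were well above background, and 135 to 179 spots flagged as irregular were left out. The log2 processed intensity minus the array's 75th percentile was averaged over the spots of a probe. A probe was kept when 75% or more of the arrays in 1 of the groups showed it well above background, and the brightest kept probe stood for a gene. Accessions were matched to RefSeq (GRCm38.p6, for names and promoters; the arrays' grid is mm9), which named 28664 probes (21613 genes) and left 27017 unnamed. Groups, taken from the sample titles, were compared with limma 3.58.1 (R 4.3.3, lmFit and eBayes, two-sided) over 22183 features, with Benjamini-Hochberg adjustment and a threshold of 0.05. Nothing says whether mice shared a litter, and the 6 and 4 arrays limit the precision. On simulated data the fit called 61% of 100 planted 2-fold changes and 18% of 100 smaller ones, with 4 false calls. Far fewer features were changed there than were called in these data. A gene that was not called is therefore not shown to be unchanged.

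The members and lists were chosen with earlier results of these data known. Named genes are the 10 members, 12 regulators and output genes (2 of which are not reported here), the 4 called genes of each list with the smallest adjusted p in each direction, and the 5 genes with the highest and the 5 with the lowest r to Arntl. Other called regulators were named after their values were seen. Alternatives were normexp (offset 50, planned on mean signals and run on median ones, since the files hold no mean), median, spike-in and quantile scaling, other filters, the mean of a gene's probes, slide row, array weights, a replicate block and leaving out each mouse.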

Additional observations from a re-analysis of the deposited data

Results flagged for a closer look

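Single mice far from the rest of their group were looked for in the 10 members and 20 named regulators and output genes, 60 groups in all, where the gap to the nearest mouse was divided by the range of the group. Chance flags about 1 in 20 groups, and 2 of the 60 were flagged, which is no more than that rate. Per1 was highest in metformin mouse 5, at 5.30, where the other metformin mice lay between 3.91 and 4.41, and the gap was 0.640 of the range against a critical value of 0.625. Rora was highest in CCl4 mouse 1, at 3.63, where the other CCl4 mice lay between 3.29 and 3.33, and the gap was 0.881 of the range against a critical value of 0.829. The difference of Per1 was -1.04 without that mouse and -0.84 with it, and neither gene changed direction.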

How the results depend on the processing

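Of the values for members under alternatives, 201 moved by less than the spread between mice and 10 by more, and of those for the named regulators and output genes 409 kept direction and side of the threshold, 12 lost the call, 3 gained it and 2, both of Csnk1d, turned sign (-0.098 with spike-in scaling, -0.51 with the mean of its probes). Some of the 201 could not move, because with 1 probe per member the other filters and the mean of probes return the main value. The 2 slide row settings gave the same differences as each other, since all CCl4 arrays were in row 1. Of the 14531 named genes, spike-in scaling called 589 higher and 6297 lower, against 4024 and 2859. So 8.55% of calls were higher against 58.5%, and 50.4% and 50.5% with median scaling and quantile normalisation. Spike-in scaling gave 1 regulator higher and 8 lower (10 and 4 before), 3 output genes higher and 4 lower (6 and 2 before) and 7 members without overlap (4 before). The share of all named genes without overlap was not counted under the alternatives, so nothing is read from the member counts there. Slide row 1 alone had 2 metformin mice, so groups separate there more easily. It called 2365 named genes higher and 1850 lower, 2 regulators lower and 3 output genes higher, and left 7 members without overlap. Dbp, Hlf, Nfil3, Bhlhe40 and Ncor1 lost their calls there (adjusted p = 0.118, 0.074, 0.0504, 0.0581 and 0.0572 in limma), at 1.83, 0.75, -1.39, -1.46 and -0.39 against 1.67, 0.93, -1.52, -1.43 and -0.40 with all 10 mice. With slide row as a covariate Dbp (1.83, adjusted p = 0.0574) lost its call, and with the mean of its probes Ncor1 did (-0.07, adjusted p = 0.508). With probes well above background on all 10 arrays 2 members were left without overlap, because Npas2 and Per3 are then not tested. Normexp gave 1 pair of members past the threshold in the metformin mice (Nr1d1 and Per1, r = -0.94, exact permutation adjusted p = 0.0389) against 0. Pooling all 10 mice turned the relations of Nr1d2 with Per2 (-0.17) and Nr1d1 with Cry2 (0.036), and leaving out the 2 farthest mice that of Arntl with Nr1d2 (0.0099). Leaving out each mouse gave 3486 to 3918 named genes higher and 2384 to 2742 lower, 10 to 11 regulators higher and 4 to 4 lower, 6 to 7 output genes higher and 2 to 3 lower, and 4 to 5 members without overlap. The replicate block, over mice 1 to 4 of both groups, called 2610 named genes higher and 2068 lower and put Arntl at -3.60 and Nr1d1 at -1.92. But the numbers name different mice, deviations of equal-numbered mice correlated at -0.14, -0.12, 0.085 and -0.0034, and 1 of 4 mice correlated best with its own number. Except where stated, the cause was not tested. Signal over background limits Npas2, Per3 and Cry1.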

Other observations

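Among the 9 members well above background on all 4 CCl4 arrays, CCl4 mouse 4 was the lowest for 5 (Arntl, Nr1d1, Nr1d2, Cry1 and Cry2) and the highest for 2 (Npas2 and Per2), so it was at an end of its group for 7 of 9. CCl4 mouse 3 was at an end for 6, CCl4 mouse 1 for 3 and CCl4 mouse 2 for 2. Among all named genes CCl4 mouse 4 was at an end for 56.7%, CCl4 mouse 3 for 50.6%, CCl4 mouse 1 for 53.2% and CCl4 mouse 2 for 39.4%. Dbp and Tef were also lowest in CCl4 mouse 4, at 3.14 and 4.27, and Nfil3 and Bhlhe40 highest there, at 5.94 and 5.84.

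Among the 8 members well above background on all 6 metformin arrays, metformin mouse 2 was at an end of its group for 5, lowest for Arntl and Clock and highest for Nr1d2, Per2 and Per3. Metformin mouse 6 was at an end for 4, highest for Arntl and Clock and lowest for Nr1d2 and Per2, and metformin mouse 1 for 0. Among all named genes metformin mouse 2 was at an end for 37.0% and metformin mouse 6 for 40.6%. These counts were made after the values were seen, and they are given without a test.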
